A study of Homo sapiens with 18 samples.

Results

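Cells exposed to 5 μM cocaine were compared with cells exposed to 1 μM cocaine at 24 h after the exposure, on 3 arrays of each dose, which are 6 of the 18 arrays of the study. The cells were SH-SY5Y, a human neuroblastoma line that differentiates towards neurons when given retinoic acid, and all groups received 10 μM retinoic acid for 7 days and then 24 h in medium without it. The medium was then replaced by medium with 0, 1 or 5 μM cocaine hydrochloride for 30 min and again by fresh medium, and the cells were harvested at 6 or 24 h. RNA of 3 dishes was pooled for each array, from 9 dishes per condition, and hybridized to Affymetrix U133 Plus 2.0 arrays. The 5 μM arrays are also called non-treated controls in their labels, and they were grouped by their stated dose.

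The members of the comparison are the 3 arrays of 5 μM and the 3 of 1 μM at 24 h, paired by replicate number, and no untreated array entered the fit. Of 54675 probe sets, 27304 had a mean over the 9 arrays of 24 h above log2(40) and were not array controls. Of these, 23209 carried 1 gene symbol, for 12719 genes. Signals are on the log2 scale throughout, and every difference is 5 μM minus 1 μM within a replicate pair unless another is named. The 3 untreated arrays of 24 h are given only as a range beside single genes.

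Cocaine blocks the reuptake of dopamine, noradrenaline and serotonin by their membrane transporters, and at higher concentrations it also blocks voltage-gated sodium channels. Drug-evoked signals reach transcription through cAMP, calcium and ERK pathways and factors such as CREB, and transcripts are further shaped by splicing factors and nuclear noncoding RNAs. Vesicle proteins, ion channels and the cytoskeleton are among the products by which neuronal cells adapt to such signals.

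The neuroblastoma markers fixed for the cell line were present, with 10 of the 11 on the array over the signal limit. At the brightest probe set none of the 10 was lower at 5 μM in all 3 pairs, and 2 were higher at an unadjusted p under 0.05. Over their 19 probe sets, 3 (15.8%) were higher and 1 (5.26%) lower, beside 4.25% and 7.78% of all probe sets. Tyrosine hydroxylase, the first enzyme of catecholamine synthesis, had no probe set over the limit. CYP26A1, which breaks down retinoic acid and is induced by it, was at 5.12 to 5.70 at 1 μM, at 4.92 to 6.31 at 5 μM and at 5.40 to 9.55 in untreated cells. Among 6 fibroblast and blood markers on the array, 4 were over the limit and none passed an unadjusted p of 0.05 at its brightest probe set. Of 6 glial markers on the array, 2 were over the limit, and the receptor ERBB3 had a difference of 0.17 (SE 0.053) and passed an unadjusted p of 0.05 in limma. In RNA of whole cultures, fewer cells of a type and less RNA per cell cannot be told apart.

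No probe set passed a Benjamini-Hochberg adjusted p of 0.10 between 5 and 1 μM in limma (0 of 27304, or 0%), and the smallest adjusted p was 0.379. At an unadjusted p under 0.05, limma counted 1160 probe sets (4.25%) higher and 2124 (7.78%) lower at 5 μM. All 3 pairs were higher in 14.1% and lower in 24.1% of probe sets, and the doses did not overlap in 4.79% that were higher and 5.97% that were lower. In the counts of all 3 pairs lower, here and below, a pair with equal values was counted as lower, which raises them relative to the higher ones. Without the replicate pairs limma called 0, and counted 598 higher and 937 lower at an unadjusted p under 0.05. When the untreated arrays of 24 h were added to estimate the spread, the fit with the pairs called 1 probe set and the fit without them 2, all of SCAMP1. The count of higher probe sets at an unadjusted p under 0.05 was 602 without replicate 1 and 758 without replicate 3, and that of lower ones was 1107 without replicate 1. The split also moved with the scaling, with 1580 higher and 1714 lower after quantile normalization of the 6 arrays and 784 higher and 2473 lower after centring on the median.

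The lower values were more frequent in the dimmer probe sets of genes that had several. At the brightest probe set of each of the 12719 genes, 571 (4.49%) were higher and 553 (4.35%) lower at an unadjusted p under 0.05 (8.84% in all), and the median difference was -0.0066. The doses did not overlap at 5.60% of these genes that were higher and 4.27% that were lower. Among the 10490 dimmer probe sets of those genes, 427 were higher and 1289 (12.3%) lower, and the median difference was -0.031. A measure of RNA quality moved with the dose. The 3′ minus the 5′ control probe set of ACTB, the cytoplasmic actin, was 0.461, 0.420 and 0.655 on the 1 μM arrays 1, 2 and 3, and 0.926, 0.686 and 1.03 on the 5 μM arrays. All 3 arrays of 5 μM lay above all 3 of 1 μM, and also above the untreated range of 0.488 to 0.654. The mean difference of 0.367 had an exact unpaired permutation p of 0.1, which is the smallest that 3 arrays against 3 allow (2-sided), and a paired exact p of 0.25, likewise the smallest. The mean of a gene's dimmer probe sets minus its brightest, averaged over genes, differed between 5 and 1 μM by -0.0277 log2 units, and the groups did not overlap (exact unpaired permutation p = 0.1, 2-sided). The part of these array measures in the results below was not tested.

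**Figure D1:**
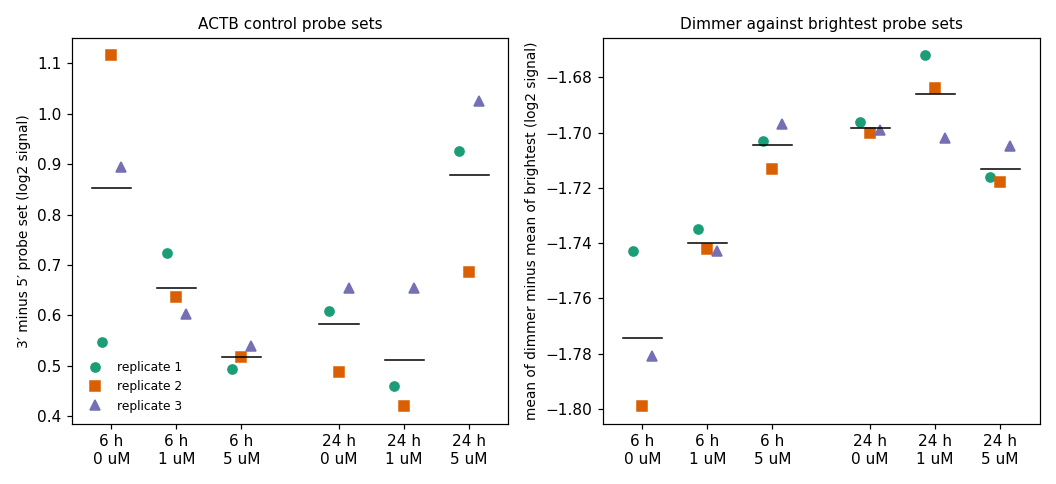
Left, the 3′ minus the 5′ control probe set of ACTB (log2 signal). Right, the signal of a gene's dimmer probe sets relative to its brightest one, averaged over genes with several (log2 signal). Points are single arrays by time and dose, and lines are the means of 3 arrays. At 24 h the 5 μM arrays lay above the 1 μM arrays on the left, with a mean difference of 0.367, and below them on the right. At 6 h both orders were turned.

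SCAMP1, a secretory carrier membrane protein of recycling and secretory vesicles, had the smallest p of all. Of its 6 probe sets over the limit, the third in brightness was at 8.46, 8.36 and 8.39 on the 1 μM arrays and at 7.62, 7.55 and 7.74 on the 5 μM arrays. All 5 μM values lay below all others at 24 h, and the untreated arrays, at 8.34 to 8.39, lay beside 1 μM. The difference was -0.77 (SE 0.059, limma adjusted p = 0.379), which missed the threshold on the 6 arrays. With the untreated arrays adding to the estimate of the spread, the adjusted limma p was 0.0436 with the replicate pairs and 0.0278 without. Another, the dimmest over the 9 arrays of 24 h, was at 7.37, 7.39 and 7.27 at 1 μM and at 6.40, 6.31 and 6.63 at 5 μM. Its difference was -0.90 (SE 0.095), with an adjusted p of 0.0895 from limma in the latter fit.

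The 6 SCAMP1 probe sets did not move together. The second, the third, the fourth in brightness and the dimmest were lower in all 3 pairs, with differences of -0.43, -0.77, -0.67 and -0.90. The brightest was at 10.82, 10.87 and 10.90 at 1 μM and at 10.89, 10.89 and 10.86 at 5 μM, and the fifth in brightness had a difference of -0.03 (SE 0.065). The lower signal was measured by 4 of the 6 probe sets and not by the brightest. The other members of the family, SCAMP2 to SCAMP5, had differences of -0.02 to 0.16 at 6 probe sets, and SCAMP3 had a difference of 0.14 (SE 0.047).

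**Figure D2:**
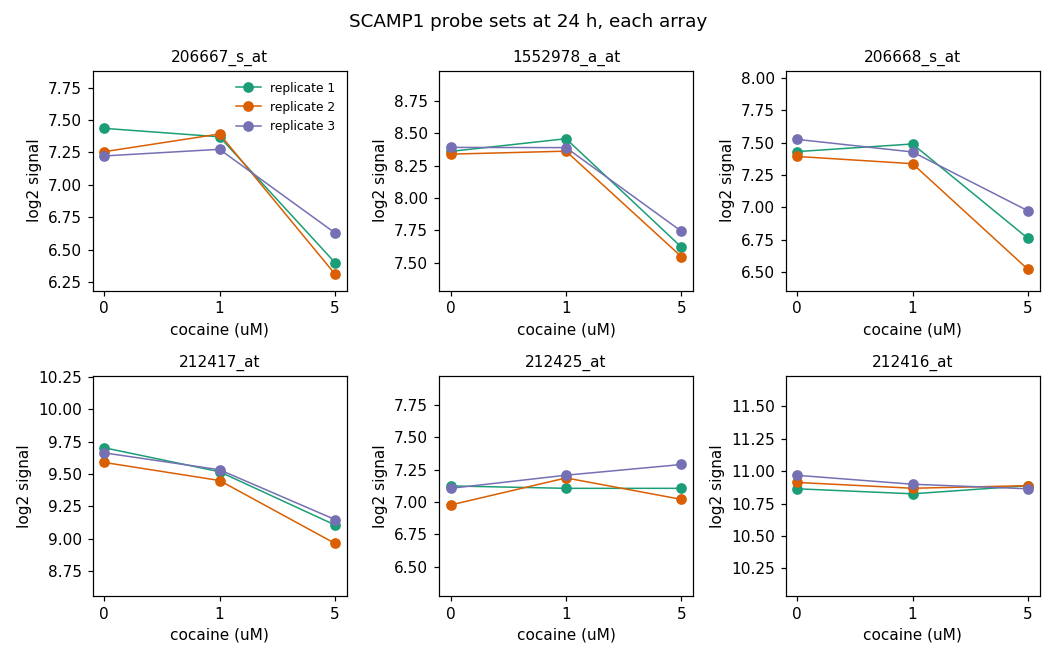
Log2 signal of the 6 SCAMP1 probe sets at 24 h against the cocaine dose (μM), with a line for each replicate and all panels spanning the same range. In 4 panels the 3 arrays of 5 μM lay below the other 6, with differences from 1 μM of -0.90 to -0.43, and in the panels of the brightest probe set and of the fifth in brightness they did not.

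Since none was called, the 10 probe sets with the smallest p in each direction and all 3 pairs in 1 direction were taken, 1 per gene. The 10 lower ones had differences of -0.77 to -0.40, and all 10 were dimmer probe sets of their genes. DEPDC1, a cell cycle gene, was at 8.50, 8.20 and 8.53 at 1 μM and at 7.80, 7.50 and 7.98 at 5 μM, and the mean difference was -0.65 (SE 0.055). CDK1, the kinase that drives entry into mitosis, was at 6.28, 6.34 and 6.40 at 1 μM and at 5.79, 5.89 and 5.96 at 5 μM in its dimmest probe set. In both genes the 2 doses did not overlap, the 5 μM arrays lay below the untreated ones, and all 4 probe sets of each gene had a negative mean difference. SF1, which binds the branch point of introns, was at 5.52, 5.70 and 5.92 at 1 μM and at 5.08, 5.06 and 5.28 at 5 μM. All its 5 μM values lay under the signal limit of 5.32, so it passed the filter through the other arrays of 24 h. The brighter SF1 probe set was not lower (difference 0.11).

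CALB1, the calcium buffer calbindin, differed more between replicates than between doses. Its dimmer probe set was at 6.38, 6.00 and 5.29 at 1 μM and at 5.90, 5.57 and 4.85 at 5 μM, so that the groups overlapped although every pair was lower. Its brighter probe set had a difference of -0.24 (SE 0.047). TPD52, a protein of membrane traffic, had a difference of -0.47 (SE 0.050), and IL13RA1, a subunit of the interleukin 13 receptor, one of -0.43 (SE 0.048). In both, too, the groups overlapped and all pairs were lower. EHBP1L1, RPL37A and the noncoding THUMPD3-AS1 had differences of -0.47, -0.41 and -0.40, all at dimmer probe sets. In EHBP1L1 and RPL37A the other probe sets went the other way or did not pass. Another probe set of THUMPD3-AS1 was lower without overlap, with a difference of -0.61 (SE 0.076). The brightest and the second brightest of EHBP1L1 had differences of 0.23 (SE 0.056) and 0.26 (SE 0.074), both higher without overlap, another of RPL37A had 0.56 (SE 0.10), and the brightest of THUMPD3-AS1 had 0.03 (SE 0.062).

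The 10 leading higher probe sets had differences of 0.30 to 0.57. The groups did not overlap in 8 of them, which their choice by p favours, beside 4.79% of all probe sets. SLC17A7, the vesicular glutamate transporter VGLUT1, was at 5.81, 5.59 and 5.74 at 1 μM and at 6.18, 5.95 and 6.20 at 5 μM. The difference was 0.39 (SE 0.049), and the untreated arrays, at 5.84 to 5.96, lay above all 1 μM arrays and overlapped the 5 μM arrays. AP3B2, the neuronal β subunit of the AP-3 adaptor that sorts vesicle cargo, was at 8.15, 8.34 and 8.25 at 1 μM and at 8.47, 8.60 and 8.59 at 5 μM. FSCN1, the actin-bundling protein fascin, was at 10.05, 10.07 and 9.95 at 1 μM and at 10.36, 10.33 and 10.27 at 5 μM. In AP3B2 and FSCN1 every 5 μM array lay above every other array of 24 h, and these 2 probe sets are the brightest of their genes, as are those of SLC17A7 and GPR35.

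TMEFF2, a transmembrane protein with follistatin-like domains, had the widest difference of the 10, with 5.25, 5.40 and 5.46 at 1 μM against 5.97, 6.01 and 5.85 at 5 μM. The 1 μM array at 5.25 was under the signal limit of 5.32. The other TMEFF2 probe set had a difference of -0.25. CCNI, cyclin I, had a difference of 0.45 (SE 0.050), PCNX2 one of 0.40 (SE 0.051) and EXTL3, an enzyme of heparan sulfate synthesis, one of 0.43 (SE 0.067). TSPAN18, a tetraspanin, GPR35, a G protein-coupled receptor, and ICOSLG, the ligand of a T cell costimulator, had differences of 0.38, 0.34 and 0.32. The brightest probe sets of CCNI, TSPAN18 and ICOSLG had differences of 0.02, 0.04 and 0.01. Against untreated cells, all 3 arrays of 5 μM lay outside the untreated range in 6 of the 10 higher probe sets and in 4 of the 10 lower ones. In 3 of the higher and 1 of the lower, all 3 arrays of 1 μM lay outside it on the other side.

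**Figure D3:**
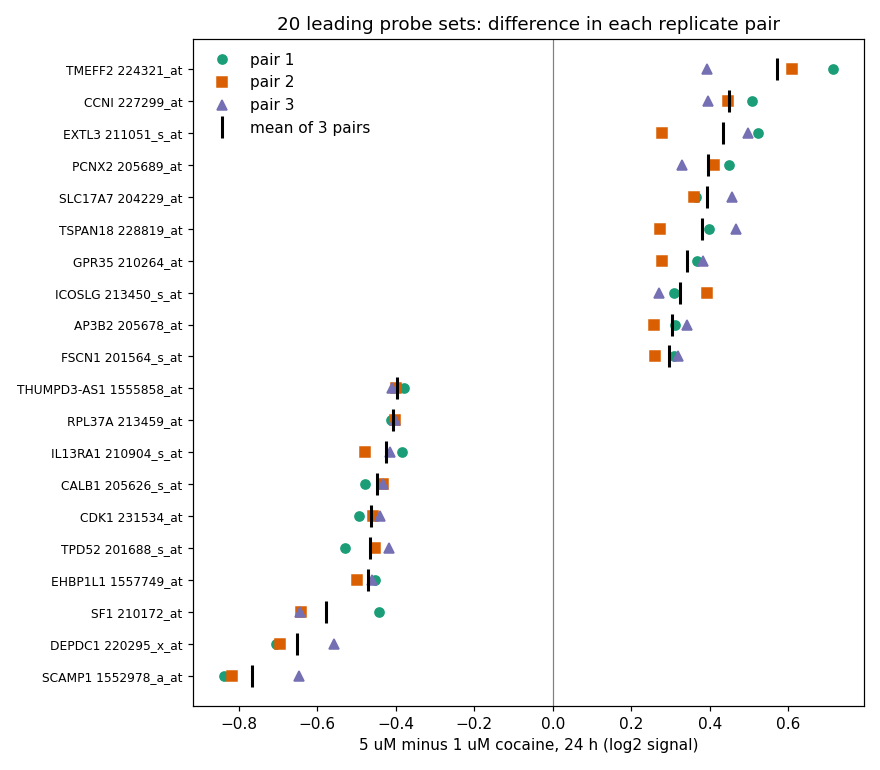
Difference between 5 and 1 μM cocaine at 24 h (log2 signal) for the 20 probe sets with the smallest p, 10 in each direction. Symbols are the 3 replicate pairs and bars their mean. All pairs lay on 1 side of 0, as the choice required, and the means ran from -0.77 for SCAMP1 to 0.57 for TMEFF2.

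Counts of list members below take each gene at its brightest probe set unless all probe sets are named, and stand beside 4.49% higher and 4.35% lower of all genes. Splicing factors, the SR proteins, hnRNPs and spliceosome components, were mostly on the lower side. At the brightest probe set of each of 55 genes, 1 was higher and 6 were lower at an unadjusted p under 0.05, and 25 were lower in all 3 pairs, where 21.9% of all genes were. Their median difference was -0.044, against -0.0066 over all genes. Over all 190 probe sets of these genes, 44 (23.2%) were lower and 5 (2.63%) higher, beside 7.78% and 4.25% of all probe sets. Among their 135 dimmer probe sets, 38 (28.1%) were lower, beside 12.3% of all dimmer ones. The count of 44 was 22 without replicate 1, 18 without replicate 3 and 17 without the replicate pairs.

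PNISR, a nuclear SR-like protein, was at 10.45, 10.60 and 10.67 at 1 μM and at 9.97, 10.48 and 10.26 at 5 μM at its brightest probe set, a difference of -0.34 (SE 0.084). Every pair was lower but the groups overlapped, and 5 of its 6 probe sets were lower at an unadjusted p under 0.05. LUC7L3, a component of the U1 particle, had a difference of -0.25 (SE 0.072), with 4 of 6 probe sets lower. CLK4, a kinase of SR proteins, was at 8.14, 8.26 and 8.27 at 1 μM and at 7.97, 8.08 and 7.96 at 5 μM, with no overlap. PRPF8, the core protein of the spliceosome, was the 1 gene higher at an unadjusted p under 0.05 at the brightest probe set. It was at 9.90, 9.95 and 10.05 at 1 μM and at 10.19, 10.06 and 10.31 at 5 μM. By any probe set 5 of the splicing factor genes were higher and 27 lower.

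Further splicing factors were picked after their values were seen. All 3 probe sets of HNRNPA1 were lower, with differences of -0.55 to -0.16, as were 3 of 7 of RBM25 and 3 of 5 of PNN at an unadjusted p under 0.05. RBM39 had a difference of -0.65 (SE 0.11) at 1 probe set, and HNRNPH1 one of -0.47 (SE 0.063). Neither of these is the brightest probe set of its gene. The brightest of RBM39 had a difference of -0.06 (SE 0.049), and that of HNRNPH1 was higher in all 3 pairs by 0.10 on average (SE 0.051).

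Among nuclear noncoding RNAs, MALAT1, a transcript of nuclear speckles where splicing factors are stored, had 12 probe sets over the limit, of which 8 were lower in all 3 pairs and 6 at an unadjusted p under 0.05. Its brightest was at 13.28, 13.51 and 13.29 at 1 μM and at 12.63, 13.51 and 13.09 at 5 μM. There replicate 2 did not differ between the doses, and the difference was -0.28 (SE 0.13), which did not pass an unadjusted p of 0.05. The MALAT1 probe set with the smallest p was at 7.86, 8.33 and 7.67 at 1 μM and at 7.27, 8.03 and 7.13 at 5 μM, a difference of -0.48 (SE 0.073). MIAT, another speckle-like nuclear RNA, had a difference of -0.46 (SE 0.12), and GAS5, a host of small nucleolar RNAs, one of -0.18 (SE 0.048). Of 12 genes, 2 were lower and none higher at the brightest probe set. Over all 39 probe sets of these genes 9 (23.1%) were lower and none higher, beside 7.78% and 4.25% of all probe sets. Without the replicate pairs 0 of the 39 were lower.

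**Figure D4:**
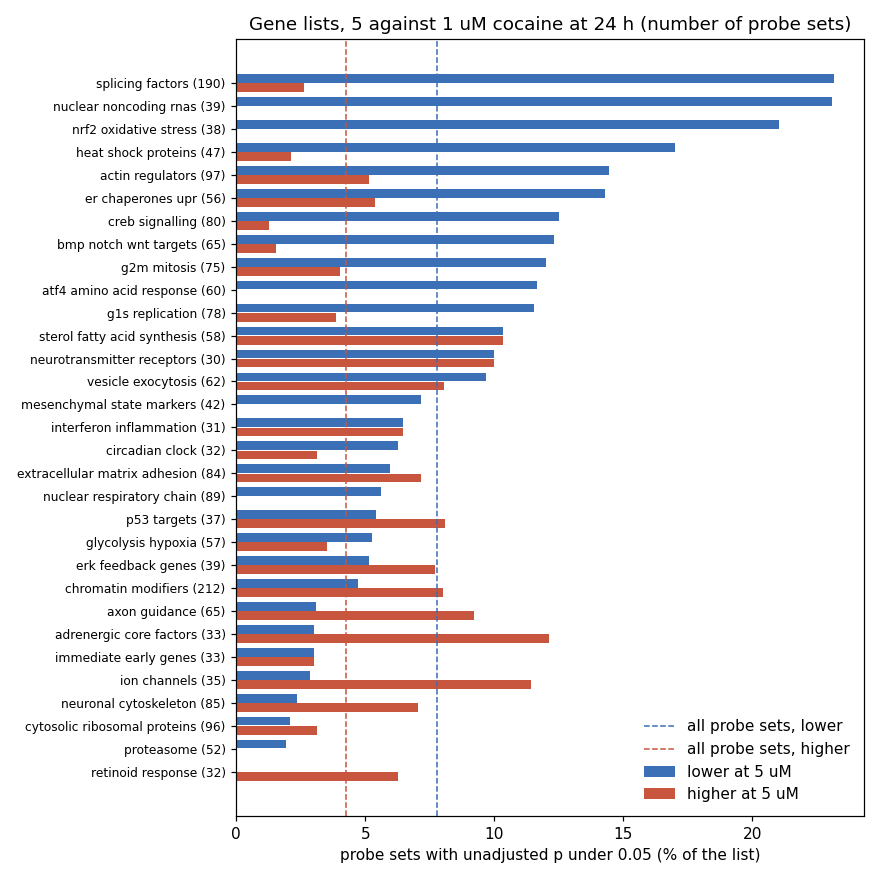
Share of each gene list's probe sets (%) with an unadjusted limma p under 0.05 between 5 and 1 μM at 24 h, lower (blue) or higher (red) at 5 μM, for lists with 30 or more probe sets (number in brackets). Dashed lines are the shares over all probe sets, 7.78% lower and 4.25% higher. Splicing factors had 23.2% lower and 2.63% higher.

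Genes of vesicle release were mixed around SCAMP1. Of 37 at their brightest probe set, 4 were higher and 2 lower at an unadjusted p under 0.05, and 8 were higher without overlap of the groups, where 5.60% of all genes were. SYN1, synapsin I, which tethers vesicles to actin, was at 6.45, 6.27 and 6.28 at 1 μM and at 6.66, 6.48 and 6.52 at 5 μM. UNC13A, which primes vesicles, was at 6.47, 6.42 and 6.46 against 6.68, 6.63 and 6.62, and CPLX1, complexin I, at 8.14, 8.11 and 8.03 against 8.24, 8.32 and 8.27. In all 3 genes the groups did not overlap, with differences of 0.22, 0.19 and 0.19. RAB27B, a GTPase of secretory granules, was on the other side, with a difference of -0.26 (SE 0.079).

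Receptor and channel genes gave few differences. SCN3B and SCN8A, a β and an α subunit of voltage-gated sodium channels, had differences of 0.18 (SE 0.050) and 0.16 (SE 0.050), and CACNA2D2, a subunit of calcium channels, one of 0.20 (SE 0.060). These were the 3 of 20 ion channel genes that were higher at an unadjusted p under 0.05 at the brightest probe set, and none was lower. By any probe set 4 were higher and 1 was lower, the potassium channel subunit KCNMB4 (difference -0.20, SE 0.069). GRIA2, an AMPA glutamate receptor subunit, was at 7.07, 7.05 and 6.72 at 1 μM and at 6.68, 6.82 and 6.42 at 5 μM, a difference of -0.31 (SE 0.054). Of the nicotinic receptor subunits, CHRNA5 was at 8.68, 8.58 and 8.67 against 8.55, 8.38 and 8.44, and CHRNB2 at 6.85, 7.04 and 6.99 against 7.26, 7.14 and 7.20. The doses did not overlap in either nicotinic gene, with opposite directions, and among 17 receptor genes 1 was higher and 2 lower at the brightest probe set. By any probe set 2 were higher and 3 lower. They included the dopamine receptor DRD2, higher at 2 probe sets by 0.20 and 0.18, and CHRM3, a muscarinic receptor, with a difference of -0.45 (SE 0.052).

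Neuronal cytoskeleton and guidance genes had few members at an unadjusted p under 0.05. Of 34 guidance genes 2 (5.88%) were higher and none lower, near the 4.49% of all genes that were higher. Over all 65 probe sets of the guidance list, 6 (9.23%) were higher and 2 (3.08%) lower, beside 4.25% and 7.78% of all probe sets. Of 37 cytoskeleton and outgrowth genes, 3 (8.11%) were higher and none lower, and 5 were higher without overlap, where 5.60% of all genes were. MAP1A, a microtubule-associated protein, was at 6.60, 6.73 and 6.74 at 1 μM and at 7.01, 6.82 and 7.09 at 5 μM. L1CAM, a cell adhesion molecule of axons, was at 11.12, 11.12 and 11.09 against 11.28, 11.25 and 11.38, all above the untreated 11.04 to 11.15. INA, the neurofilament protein internexin, had a difference of 0.18 (SE 0.051), and PLXNA2, a semaphorin receptor, one of 0.29 (SE 0.067). Over the 85 probe sets of the cytoskeleton list, 6 (7.06%) were higher and 2 (2.35%) lower, beside 4.25% and 7.78% of all probe sets. The count of 6 was 1 without replicate 1, 0 without replicate 3 and 2 without the replicate pairs.

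Actin regulators differed by probe set. At the brightest, 2 of 38 were higher, among them PFN1, the monomer-binding profilin, with a difference of 0.16 (SE 0.057), and none was lower. Over all 97 probe sets, 14 (14.4%) were lower and 5 (5.15%) higher, beside 7.78% and 4.25% of all probe sets. The 14 were all among the 59 dimmer ones (23.7%), beside 12.3% of all dimmer ones. Without the replicate pairs 6 were lower. CALD1, the actin-binding caldesmon, held 5 of the 14. Its brightest probe set was at 11.81, 11.86 and 11.74 at 1 μM and at 11.66, 11.83 and 11.54 at 5 μM, a difference of -0.13 (SE 0.056), whereas the dimmer one with the largest difference was at 9.58, 9.27 and 9.14 against 8.51, 8.97 and 8.39, a difference of -0.70 (SE 0.15). The latter groups did not overlap.

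Of 34 genes of cAMP and CREB signalling, ADCY6, an adenylate cyclase, was higher at 8.24, 8.34 and 8.18 against 8.47, 8.59 and 8.37, and BDNF, a neurotrophin and CREB target, had a difference of -0.15 (SE 0.054). Over all 80 probe sets of these genes, 10 (12.5%), of 6 genes, were lower and 1 (1.25%) higher, beside 7.78% and 4.25% of all probe sets. Of the 46 dimmer ones, 9 (19.6%) were lower and none higher, beside 12.3% lower of all dimmer ones. CREB1 itself, named after its values were seen, had 4 of 7 probe sets lower at an unadjusted p under 0.05. Its brightest was not among them (difference -0.05, SE 0.048), while the one with the smallest p was at 7.61, 7.72 and 7.50 at 1 μM and at 7.02, 7.36 and 6.99 at 5 μM. Immediate early genes had 0 of 18 at an unadjusted p under 0.05 in limma at the brightest probe set and 0 at an adjusted p under 0.10. By dimmer probe sets NR4A1 had a difference of 0.20 (SE 0.048) and JUN one of -0.28 (SE 0.086), both at an unadjusted p under 0.05.

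Chromatin modifiers had 5 genes higher and none lower of 79 at the brightest probe set, beside 4.49% and 4.35% of all genes. Among them HDAC5, a histone deacetylase that shuttles between nucleus and cytoplasm, was at 7.46, 7.50 and 7.51 at 1 μM and at 7.64, 7.65 and 7.62 at 5 μM, above the untreated 7.38 to 7.43. KDM5B, a histone demethylase, had a difference of 0.16 (SE 0.055). Over their 212 probe sets 17 (8.02%) were higher and 10 (4.72%) lower, beside 4.25% and 7.78% of all probe sets. The count of 17 ran from 7 without replicate 3 and 8 without replicate 1 to 28 without replicate 2 and 29 after quantile normalization. Genes chosen after their values were seen for having all 3 probe sets higher were PRRC2A, with differences of 0.26 to 0.28, BAG6, with 0.20 to 0.26, and the deubiquitinase USP21, with 0.19 to 0.31.

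In the amino acid response, 3 of 36 genes (8.33%) were lower and none higher at an unadjusted p under 0.05, beside 4.35% and 4.49% of all genes, and 15 were lower in all 3 pairs, where 21.9% of all genes were. The medians of the list in pairs 1, 2 and 3 were -0.0708, 0 and -0.106. EPRS1, the glutamyl-prolyl-tRNA synthetase, was at 10.89, 10.64 and 10.61 at 1 μM and at 10.17, 10.34 and 10.29 at 5 μM, below the untreated 10.65 to 10.67. ALDH1L2, a mitochondrial folate enzyme, and SLC7A11, the cystine transporter, had differences of -0.27 (SE 0.071) and -0.23 (SE 0.083). Among 27 endoplasmic reticulum chaperone genes, HSP90B1 had a difference of -0.18 (SE 0.051) and calreticulin, CALR, one of 0.16 (SE 0.056), among 1 lower and 2 higher. Over all 56 probe sets of the chaperone genes, 8 (14.3%) were lower and 3 (5.36%) higher, beside 7.78% and 4.25% of all probe sets. Of the 29 dimmer ones, 7 (24.1%) were lower and 1 higher, beside 12.3% lower of all dimmer ones.

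A pair of lists had low medians that differed between the replicate pairs. The 18 mesenchymal markers had a median difference of -0.13, with pair medians of -0.0225, -0.00533 and -0.318, and none passed an unadjusted p of 0.05 at its brightest probe set. CCN2, a matrix protein induced by YAP, was at 7.09, 7.53 and 6.97 at 1 μM and at 7.05, 7.29 and 5.79 at 5 μM, so that the third 5 μM array stood apart. The 7 mitochondrially encoded transcripts had a median of -0.16, with pair medians of -0.42, 0.0516 and -0.188. COX1, a cytochrome oxidase subunit, was at 13.44, 13.56 and 13.47 at 1 μM and at 12.84, 13.60 and 13.13 at 5 μM, with the first 5 μM array lowest.

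In the catecholamine and adrenergic lists, DBH, which makes noradrenaline from dopamine, had a difference of 0.19 (SE 0.056), and PHOX2A, a noradrenergic transcription factor, was at 11.40, 11.37 and 11.44 at 1 μM and at 11.52, 11.51 and 11.66 at 5 μM. TFAP2B, another factor of that lineage, had a difference of -0.14 (SE 0.048). SLC6A3, the dopamine transporter, was at 5.88, 5.87 and 5.86 against 6.06, 5.89 and 5.98, which did not pass an unadjusted p of 0.05. By any probe set, 2 catecholamine genes were higher at an unadjusted p under 0.05, DBH and SLC6A2 (0.16). Another 3 were lower, CYB561 (-0.47), DDC (-0.19) and MAOA (-0.19), all at dimmer probe sets. Genes that neuronal cells regulate through growth factor and retinoid signals gave single members. SPRY4 and ETV5, which ERK signalling induces, were the 2 of 18 such genes higher at an unadjusted p under 0.05 at the brightest probe set. SPRY4 was at 9.10, 9.26 and 8.91 against 9.35, 9.40 and 9.16. By any probe set 2 of the 18 were higher and 1 lower, ETV1, at 2 dimmer probe sets (-0.24 and -0.18). CRABP2, which carries retinoic acid to its receptor, was the 1 of 16 retinoid genes at the brightest probe set, with a difference of 0.23 (SE 0.064). TGM2, a transglutaminase induced by retinoic acid, had one of 0.23 (SE 0.050) at a dimmer probe set. NKD1, a target and inhibitor of Wnt signalling, was at 5.54, 5.47 and 5.51 at 1 μM and at 5.74, 5.68 and 5.92 at 5 μM without overlap, while HES1 and JAG1 of the Notch pathway had differences of -0.16 (SE 0.051) and -0.27 (SE 0.095).

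Cell cycle lists went both ways at the brightest probe set. Of 43 genes of mitosis, TPX2, a spindle protein, and CDC25B, which activates CDK1, were higher by 0.14 and 0.13, and none was lower at an unadjusted p under 0.05. Over all 75 probe sets of the mitosis genes, 9 (12%) were lower and 3 (4%) higher, beside 7.78% and 4.25% of all probe sets. The 9 were all among the 32 dimmer ones (28.1%), beside 12.3% of all dimmer ones. Of 44 genes of replication, CDC6, which loads the replicative helicase, had a difference of -0.17 (SE 0.059). In all 3 pairs 13 were lower and 5 higher, beside 21.9% and 16.5% of all genes. Over all 78 probe sets of these genes, 9 (11.5%) were lower and 3 (3.85%) higher. Of the 34 dimmer ones, 8 (23.5%) were lower and 3 higher. H2BC9, the 1 of 12 histone genes, had a difference of -0.18 (SE 0.054). Of 21 targets of p53, the death receptor FAS was lower, at 5.66, 5.93 and 5.63 against 5.27, 5.83 and 5.13, and PHLDA3 had a difference of 0.15 (SE 0.046).

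In metabolism and stress, 4 of 28 sterol and fatty acid genes were higher and 1 lower at the brightest probe set at an unadjusted p under 0.05. Over all 58 probe sets 6 were higher and 6 lower (10.3% each), beside 4.25% and 7.78% of all probe sets. Of the lower ones, 2 were of SQLE, squalene epoxidase (-0.31 and -0.28), and 2 of INSIG1, which retains the sterol sensor (-0.58 and -0.22). DHCR7, the last enzyme of cholesterol synthesis, was at 7.96, 7.84 and 7.86 at 1 μM and at 8.17, 7.99 and 8.04 at 5 μM, while NSDHL of the same pathway had a difference of -0.14 (SE 0.050). PKM, pyruvate kinase, was the 1 of 34 glycolysis and hypoxia genes at the brightest probe set, with a difference of 0.22 (SE 0.048). By any probe set 2 of these genes were higher and 3 lower, among them VEGFA (0.16) and EGLN1 (-0.31). PGD of the pentose phosphate pathway had a difference of -0.18 (SE 0.055), and with SLC7A11 made 2 lower and none higher of 25 NRF2 targets at the brightest probe set. Over all 38 probe sets of these targets 8 (21.1%) were lower and none higher, and 6 of the 13 dimmer ones (46.2%) were lower, beside 7.78% of all probe sets and 12.3% of all dimmer ones. Of 24 heat shock genes, HSPB1 had a difference of 0.19 (SE 0.058) and DNAJB4 one of -0.21 (SE 0.066), with 1 higher and 2 lower at the brightest probe set. Over all 47 probe sets 8 were lower and 1 higher.

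Matrix and inflammation genes were led by members that differed between replicates. COL6A2, a collagen VI chain, had a difference of 0.21 (SE 0.050) and the integrin ITGA4 one of -0.26 (SE 0.074), among 3 higher and 1 lower of 41. SOCS3, an inhibitor of cytokine signalling, was at 7.74, 7.80 and 6.04 at 1 μM and at 7.45, 7.67 and 5.77 at 5 μM, lower in every pair beside a wider gap between replicate 3 and the others. STAT3 had a difference of 0.16 (SE 0.049), and the list had 2 higher and 2 lower of 20. Circadian clock genes had 0 of 19 at an unadjusted p under 0.05 at the brightest probe set and 0 at an adjusted p under 0.10 in limma. By dimmer probe sets BMAL1 and RORB were lower (-0.34 each) and CSNK1E higher (0.20) at an unadjusted p under 0.05.

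The ribosomal proteins (50 genes), proteasome subunits (31 genes) and nuclear-encoded respiratory chain subunits (49 genes) had no gene at an unadjusted p under 0.05 in limma at the brightest probe set, with none at an adjusted p under 0.10, and medians of -0.0155, -0.0151 and -0.0257. By any probe set, 3 ribosomal genes were higher and 2 lower, with RPL37A in both counts, and 1 proteasome and 5 respiratory chain genes were lower. In all 3 pairs, 12 ribosomal, 10 proteasome and 18 respiratory chain genes were lower, and 2, 3 and 2 were higher. Of all genes, 21.9% were lower and 16.5% higher in all 3 pairs. Without overlap, 6 respiratory chain genes were lower and 0 higher, beside 4.27% and 5.60% of all genes.

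The 7 genes with a second assay had no adjusted p under 0.10 in limma. At the brightest probe set, the transcription factor NFAT5 had a difference of 0.16 (SE 0.10), the actin-binding ENC1 one of -0.01 (SE 0.056), the ETS factor ELF1 one of -0.06 (SE 0.065), the neurabin PPP1R9A one of 0.04 (SE 0.084), the RNA-binding IGF2BP3 one of -0.04 (SE 0.051), the growth factor NRG1 one of -0.09 (SE 0.072) and the semaphorin SEMA6D one of 0.06 (SE 0.048). A second probe set of ELF1 had a difference of -0.34 (SE 0.12) and passed an unadjusted p of 0.05. The reference genes GAPDH and HPRT1 had differences of 0.02 (SE 0.045) and -0.04 (SE 0.046).

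The difference between the doses was set against the same difference at 6 h, on the 12 arrays of both doses and times with the replicate pairs. A total of 844 probe sets (3.09%) passed an adjusted limma p of 0.10 for the difference between the times, 656 with a more negative value at 24 h and 188 with a more positive one. At 6 h itself limma called 169 of the same probe sets (0.619%) between the doses. In 536 of the 844 every pair was lower at 5 μM at 24 h and every pair was higher at 6 h, and in 157 the opposite held. The choice of the 844 by the difference between the times favours such opposite signs. No share over all probe sets stands beside these counts, so they only describe the 844. The calls followed probe set brightness. Of the dimmer probe sets, 4.86% were more negative and 0.572% more positive at 24 h, and of the brightest, 0.582% and 0.896%. No probe set was called when any 1 of the replicates 1, 2 or 3 was left out at both times, and without the replicate pairs 36 were more negative and 1 more positive.

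The ACTB measure and that of dimmer against brightest probe sets were turned between the times as well. The 3′ minus the 5′ control probe set of GAPDH was not. It was higher at 5 μM in all 3 pairs at both times, by 0.0386 at 24 h and 0.0443 at 6 h. At 6 h, ACTB 3′ minus 5′ was lower at 5 μM in all 3 pairs, with values of 0.724, 0.637 and 0.603 at 1 μM and 0.493, 0.518 and 0.539 at 5 μM. The dimmer relative to the brightest probe sets differed between the doses by 0.0354 at 6 h and by -0.0277 at 24 h. Their part in the difference between the times was not tested.

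SCAMP1 had the opposite difference at 6 h, with 7.41, 7.86 and 7.58 at 1 μM and 8.31, 8.32 and 8.11 at 5 μM at the third probe set in brightness. The value at 24 h minus that at 6 h was -1.40 (limma adjusted p = 0.0461), and 3 of its 6 probe sets were called. MALAT1 had 6 of 12 probe sets called, with values of -1.36 to -0.67, CALD1 4 of 8, CREB1 3 of 7 and CD46, a complement regulator, 3 of 3. BBLN had 3 of 3 probe sets called with more positive values at 24 h, of 0.29 to 0.37. Of the splicing factors' 190 probe sets 16 (8.42%) were more negative and none more positive, beside 2.40% and 0.689% of all probe sets.

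Of genes with a more negative difference at 24 h, CHRM3, a muscarinic receptor, had differences of -0.45 at 24 h and 0.45 at 6 h. HS6ST2, which sulfates heparan sulfate, had -0.58 and 0.62, TMEM38B, an intracellular cation channel, -0.36 and 0.52, and B3GNT2, a glycosyltransferase, -0.31 and 0.41. Each passed the test between the times in limma, with an adjusted p of 0.0381 to 0.0461. Of those with a more positive difference, RIMS4, of the active zone family RIM, was at 7.51, 7.48 and 7.39 at 1 μM and at 7.96, 7.74 and 7.74 at 5 μM at 24 h, with differences of 0.35 at 24 h and -0.17 at 6 h. PCBD1, which recycles the cofactor of tyrosine hydroxylase, had 0.17 and -0.26, the growth factor midkine, MDK, 0.20 and -0.19, THTPA, a thiamine triphosphatase, 0.21 and -0.21, and TMEM222 0.24 and -0.20.

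**Figure D5:**
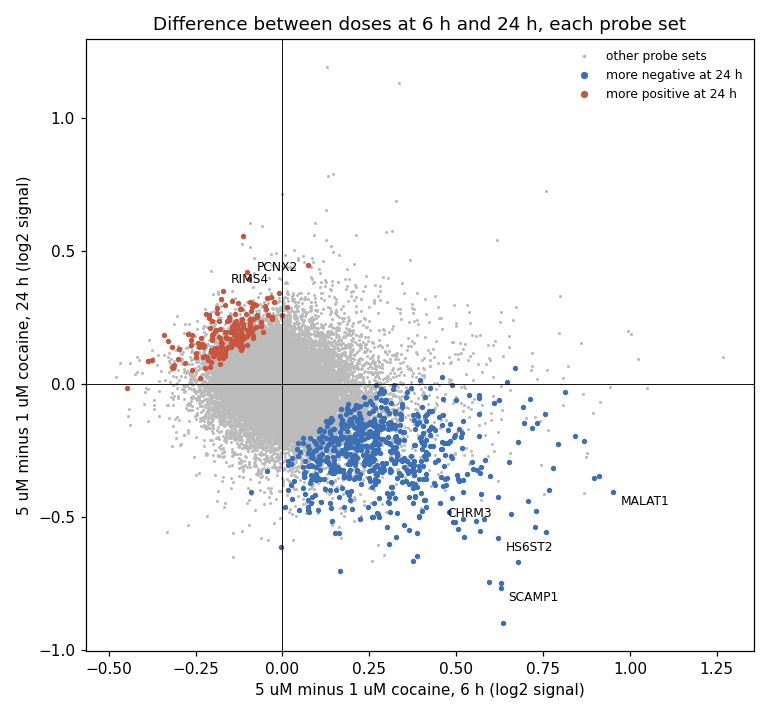
Difference between 5 and 1 μM cocaine (log2 signal) at 6 h (horizontal) and 24 h (vertical) for each probe set tested. Coloured points are the 844 called for the difference between the times, 656 more negative (blue) and 188 more positive (red) at 24 h, which by this choice lie below or above the diagonal.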

How the data were processed

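The deposited values are log2 signals of 18 Affymetrix U133 Plus 2.0 arrays, which the authors computed by RMA, a background correction and normalization with median polish of the probes, once for 6 h and once for 24 h. Versions of their RMA and limma are not given in the sources used here. Groups came from the labels. Probe sets were kept when their mean over the 9 arrays of 24 h was above log2(40) (5.32), and 33 array controls were left out. Gene symbols came from the array's annotation, updated through the RefSeq table of genes, which matched 41037 of the probe sets that carry 1 symbol. Probe sets with several symbols (1098) or none (2997) were tested and not named. Where a gene had several probe sets, the one with the highest mean was called the brightest and the others dimmer.

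The doses were compared with lmFit and eBayes of limma 3.58.1 in R 4.3.3 on 6 arrays, with the replicate number as a block (2 residual degrees of freedom), p-values adjusted by Benjamini and Hochberg over all 27304 probe sets, and a threshold of 0.10. The contrast between the times used 12 arrays, with a block for each replicate at each time. Array measures were tested with exact permutation tests. The scripts were checked on simulated data. The software further included data.table (1.17.8), Python (3.11.15) and matplotlib (3.10.9).

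The labels number the replicates of each dose from 1 to 3. Deviations from the group means correlated at 0.376 to 0.715 between arrays of the same number (3 pairs) and at -0.482 to 0.188 between different numbers (6 pairs), so the numbers were taken to pair the arrays. Replicates are separate pools of dishes, and nothing says that they came from separate experiments, so p-values measure only the spread between these pools. Their small number limits the precision.

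The members and the gene lists were chosen with earlier results of these data known. Genes were named by rule: the 10 called probe sets per direction with the largest change, filled up by the smallest p with all pairs in 1 direction; 5 per direction for the contrast between the times; up to 4 genes of each list with the smallest p at the brightest probe set; genes of the study's second assay, TH, MALAT1, CYP26A1, GAPDH and HPRT1; and genes called by several probe sets. Genes named beyond it, the other SCAMP genes and CALD1 in its list included, were chosen after their values were seen. Some genes the study names are not reported here. The alternatives were fits without the block or with the untreated arrays, other signal filters, 1 probe set per gene, an intensity trend, robust eBayes, array weights, quantile normalization, median centring, an adjusted p under 0.05 and leaving out each replicate. Probe sequences were not used here.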

Additional observations from a re-analysis of the deposited data

Results flagged for a closer look

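Of the 64 probe sets named for their p or as genes of the study, 29 had a difference between the doses that differed between 24 h and 6 h at an adjusted p under 0.10 in limma (12 arrays, replicate pairs). In 20 of them the value was more negative at 24 h and in 9 more positive. Values below are the difference between 5 and 1 μM at 24 h minus that at 6 h on the log2 scale, with adjusted p from 0.0381 to 0.0943. Most of these probe sets were chosen for a small p in 1 of the contrasts, so that their size is a description.

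Of vesicle and membrane genes, SCAMP1 had -1.40 and the positive ones were AP3B2 with 0.432, RIMS4 with 0.522 and PCNX2 with 0.492. MALAT1 had -1.36, -1.25, -1.21, -1.02, -0.871 and -0.667 at 6 of its 12 probe sets. The splicing factor SF1 had -0.904, the RNA-binding IGF2BP3 -0.587 at a dimmer probe set, the noncoding THUMPD3-AS1 -0.518 and the ribosomal RPL37A -0.316. The SF1 probe set was under the signal limit on all 5 μM arrays of 24 h.

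Of receptors and enzymes of the cell surface and secretory pathway, CHRM3 had -0.901, IL13RA1 -0.807, TMEM38B -0.881, HS6ST2 -1.20 and B3GNT2 -0.713. EHBP1L1 had -0.671, TPD52 -0.607, CDK1 -0.537 and CALB1 -0.530. On the positive side were FSCN1 with 0.372, CCNI with 0.374, MDK with 0.393, THTPA with 0.418, PCBD1 with 0.429 and TMEM222 with 0.439. ACTB 3′ minus 5′ differed between the doses by 0.367 at 24 h and by -0.138 at 6 h, and its part in these values was not tested. No value between the times was called after 1 replicate was left out.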

How the results depend on the processing

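No probe set was called between the doses under any alternative but the 2 fits with the untreated arrays, which called 1 with and 2 without the replicate block. The adjusted limma p of SCAMP1 ran from 0.0278 to 0.751 over the alternatives. Without the replicate block, 598 probe sets were higher and 937 lower at an unadjusted p under 0.05, and 670 and 931 with the untreated arrays and no block. Without a signal filter 2089 were higher, and with 1 probe set per gene 765 were higher and 774 lower. Leaving out 1 replicate gave 602 to 1323 higher and 1107 to 1760 lower. For the difference between the times, the fit without the replicate block called 36 more negative and 1 more positive, centring called 73 more positive, the limit at both times 314, and leaving out 1 replicate 0 to 0 in each direction.

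Of 2079 values of named probe sets under the alternatives, 1946 kept direction and side of the threshold, 125 lost significance, 2 gained it and 6 reversed. With 1 replicate left out, the difference ran from -0.0514 to 0.0365 for ENC1 (reversed without replicate 2), from -0.0340 to 0.149 for PPP1R9A and from -0.146 to 0.193 for a dim MALAT1 probe set (both reversed without replicate 1), and from -0.284 to 0.229 for CYP26A1 (reversed without replicate 3), which was also at -3.71e-05 after quantile normalization and at -0.00117 after centring. The cause was not tested.

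The counts of list members at an unadjusted p under 0.05 were followed through alternatives chosen after seeing the data. Of 44 lower splicing factor probe sets, 17 to 46 were counted, and of 9 lower noncoding RNA probe sets 0 to 11, with 0 without the block. The comparison of the doses has 2 residual degrees of freedom, which limits the size of difference that could be called.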
